A study of Danio rerio with 32 samples.

Results

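Transcripts that tell loss of keap1a from loss of keap1b were sought by comparing crkeap1a with crkeap1b larvae directly, 4 pools against 4, which is 8 of the 32 pools in the series. Zebrafish carry these paralogs in place of the single mammalian KEAP1 gene. The crkeap1a larvae were injected at the one-cell stage with Cas9 and guides against keap1a, and the crkeap1b larvae with Cas9 and guides against keap1b, a pair of guides per gene. Such injected animals, called crispants, are mosaics of edited and unedited cells rather than a mutant line, and the degree of editing in these pools was not measured in the data used here. All pools held 10 whole larvae at 7 days post fertilization (dpf), and no treatment separates the groups. WT pools and crkeap1a/b pools, in which both paralogs were targeted, give the level of each transcript beside the comparison and do not enter the fit to the 8 pools on which the results rest. Alternative fits of the same contrast took in these groups (16 pools) or the whole series (32 pools), which adds the Nrf2 KO line, a knockout of the zebrafish Nrf2 gene nfe2l2a, and the Bach1 DKO line, a knockout of bach1a and bach1b, each without and with crkeap1a/b editing, in 4 pools a group. Levels in the Nrf2 KO pools are also given for some transcripts. Clutch siblings served as controls in the study, but the clutch, injection day and library batch of each pool are not given in the labels, so that a difference in clutch or batch between the groups cannot be told apart from the editing.

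Keap1 is the adaptor that presents the transcription factor Nrf2 to a Cul3-based ubiquitin ligase, which keeps Nrf2 scarce under resting conditions. When Keap1 is lost, Nrf2 accumulates, pairs with small Maf proteins at antioxidant response elements and drives genes for glutathione synthesis, thioredoxin and peroxiredoxin cycling, conjugation and efflux of electrophiles, and iron storage. Bach proteins compete for the same elements and repress many of these genes.

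The deposited values were raw read counts per gene from a library kit that reads the 3′ end of polyadenylated transcripts. Total counts of the 8 pools ran from 3496598 to 4186919, of which 2075299 to 2804487 fell in rows with a gene ID. The 786 rows that carry no ID, of which the most abundant alone held 28% to 37.8% of each pool, were left out of library sizes and tests. Levels are given as CPM, a depth-scaled count computed on ID-bearing counts and further scaled across the 16 pools of the WT background. By depth alone, before that further scaling, 3 counts correspond to 1.07 to 1.45 CPM in these 8 pools. The further scaling moves this level up or down in each pool. Of 19 defining tissue markers, 10 matched a row by symbol, and all 10 were above 0 in all 8 pools, from the pancreatic protease prss1 at 3106 to 13453 CPM to the lens crystallin crygm2d1 at 0.458 to 6.97 CPM. Transcripts of liver (fabp10a), retina (rho) and neutrophils (mpx) were among them. The epidermal keratin krt4 was uneven, at 9.11 to 685 CPM. The markers of muscle (mylpfa, ckma) and blood (hbaa1, hbba1) matched no row, so this check does not cover those tissues.

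The pools of each group were spread widely before any gene was compared. On the first principal component of log2 CPM, which carried 43.5% of the variance, crkeap1a replicates 1 and 4 lay at -36 and -28.1 and replicates 2 and 3 at 20.4 and 29.4. The crkeap1b pools lay at -4, -44.9, 18.9 and 44.3 for replicates 1 to 4. Neither this component nor the second (17.5% of the variance) separated the groups. On the second, crkeap1b replicate 4 stood apart at -41.5 and crkeap1a replicate 3 at 31.1. On the third (9.61% of the variance) the groups came closest to separating, with crkeap1a pools at -18.9 to -1.6 and crkeap1b pools at -1.7 to 32.7. The pooled standard deviation of log2 CPM within a group was 0.455 in crkeap1a and 0.5 in crkeap1b larvae. All pools were kept in their labelled groups.

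**Figure D1:**
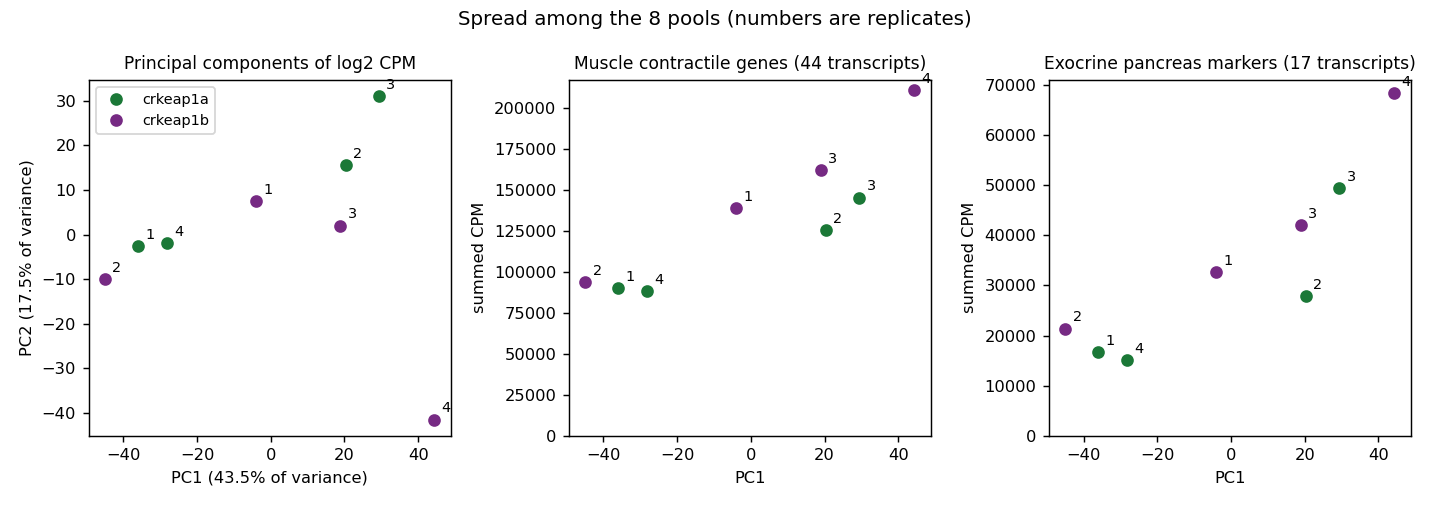
Principal components of log2 CPM of the 8 pools (left, PC1 against PC2) and the summed CPM of the tested muscle contractile genes (middle) and exocrine pancreas markers (right) of each pool against its PC1 value. Green points are crkeap1a and purple points crkeap1b pools, numbered by replicate. Within each group, the pair of pools with the highest PC1 values (20.4 and 29.4, and 18.9 and 44.3) also has the highest summed muscle and pancreas levels.

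Across 11426 rows tested with limma-voom, 1 transcript (0.00875%) passed a Benjamini-Hochberg adjusted p of 0.05. It was anpepb.1, a membrane alanyl aminopeptidase of the kind found on the intestinal brush border, and it was higher in crkeap1a larvae. At an unadjusted limma-voom p under 0.05 there were 201 rows higher in crkeap1a (1.76% of rows tested) and 160 higher in crkeap1b (1.4%). The pools of the groups did not overlap in 143 rows with crkeap1a above (1.25%) and in 149 rows with crkeap1b above (1.3%). When the same contrast was taken from a fit to all 32 pools, which shares 1 estimate of spread per gene over the 8 groups, 13 of 14108 rows passed (0.0921%), 11 of them higher in crkeap1a. The 13 were gclc, dhrs13l1, pon1, txnrd3, anpepb.1, GeneID_100006428, gsto1, usp2b, sftpba, eprs1 and keap1b, higher in crkeap1a, and ppp1r14ba and rpl22l1, higher in crkeap1b. In the fit to the 8 pools alone, only anpepb.1 of these 13 passed. Usp2b, a ubiquitin protease singled out here after its values were seen, was at 75.7 ± 10.8 CPM in crkeap1a and 43.2 ± 17.7 CPM in crkeap1b pools (SD, n = 4 each), with WT at 85.5 ± 6.71 CPM, above both means. P-values here measure the spread between pools, and nothing in the labels says whether pools of a group came from separate clutches.

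The edited genes were examined first. Transcript counts do not measure editing, because a 3′ read also counts a message that carries an indel. In crkeap1a pools keap1a was at 23.8, 19.4, 17.7 and 14.9 CPM, and in crkeap1b pools at 18.2, 22.4, 23.8 and 28.6 CPM. These ranges overlapped. The log2 fold change of crkeap1a over crkeap1b was -0.27 ± 0.24 (SE), with a 95% interval of -0.78 to 0.25 (limma-voom, adjusted p = 1). WT pools held 15.6 ± 1.95 CPM of keap1a (SD, n = 4) and crkeap1a/b pools 41.5 ± 6.04 CPM (SD, n = 4).

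The paralog keap1b differed far more in level. It was at 49.4, 106, 119 and 58.3 CPM in crkeap1a pools and at 30.6, 16.9, 32.4 and 26.2 CPM in crkeap1b pools. Every crkeap1a pool lay above every crkeap1b pool and above every WT pool (27.6, 34.6, 32.8 and 29.7 CPM), while the crkeap1b pools overlapped WT. The fitted fold was 3.09, a log2 fold change of 1.63 ± 0.32 (SE), and it did not pass in the fit to these 8 pools (limma-voom, adjusted p = 0.381). It passed in the fit to all 32 pools (limma-voom, adjusted p = 0.000102), which shares 1 estimate of spread over all groups. The SD of keap1b was 34.3 CPM in crkeap1a, 6.92 CPM in crkeap1b and 3.11 CPM in WT pools (n = 4 each). The crkeap1a pools with the higher keap1b, replicates 2 and 3, are also the crkeap1a pools with the higher values on the first component. Targeting both paralogs left keap1b at 36.1 ± 7.88 CPM (SD, n = 4), overlapping WT, so that the level in the crkeap1a pools was above that of any other group of the WT background. Of the 10 tested genes nearest to keap1b in gene order, 7 were higher in crkeap1a, and the log2 fold changes ran from -0.65 to 0.82. An unadjusted p just under 0.05 was reached by 2 of them. These were the chromatin remodeller smarca4b (0.44 ± 0.19, SE) and the lipoprotein receptor ldlrb (0.80 ± 0.36, SE). Over all rows tested, 1.76% were at such a p and higher in crkeap1a. None of the 10 nearest to keap1a was at such a p, and their log2 fold changes ran from -0.41 to 0.23. A local effect around keap1b was not tested.

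The other components of the pathway showed no called difference. Rows were found for 17 of 23 component names, and 15 could be tested, 1 of which (keap1b) had an unadjusted p under 0.05. With both paralogs included, 7 of the 15 were higher in crkeap1a and 8 in crkeap1b, with a median log2 fold change of -0.08 against 0.01 over all rows tested, which turned to 0.09 without crkeap1a replicate 4. Nfe2l2a, the zebrafish Nrf2, was at 288, 248, 193 and 295 CPM in crkeap1a pools and at 284, 322, 268 and 291 CPM in crkeap1b pools. The groups overlapped, and all 8 pools lay below every WT pool (mean 399 ± 55.8 CPM, SD, n = 4). Its log2 fold change between the crispants was -0.17 ± 0.20 (SE), with a 95% interval of -0.60 to 0.26. The ligase scaffolds cul3a and cul3b were at log2 fold changes of -0.14 ± 0.21 and -0.12 ± 0.21 (SE), and the ligase RING subunit rbx1 at 0.04 ± 0.31 (SE). Among the repressors, bach1a and bach1b were at 0.16 ± 0.29 and 0.38 ± 0.26 (SE), bach2a at -0.37 ± 0.48 and bach2b at 0.16 ± 0.31 (SE). The largest non-paralog values were those of nfe2l3, a relative of Nrf2, at 0.63 ± 0.34 (SE), and of the small Maf partner mafgb at -0.65 ± 0.39 (SE). The Keap1-binding proteins sqstm1, an autophagy receptor, and pgam5, a mitochondrial phosphatase, were at 0.28 ± 0.21 and -0.08 ± 0.24 (SE).

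**Figure D2:**
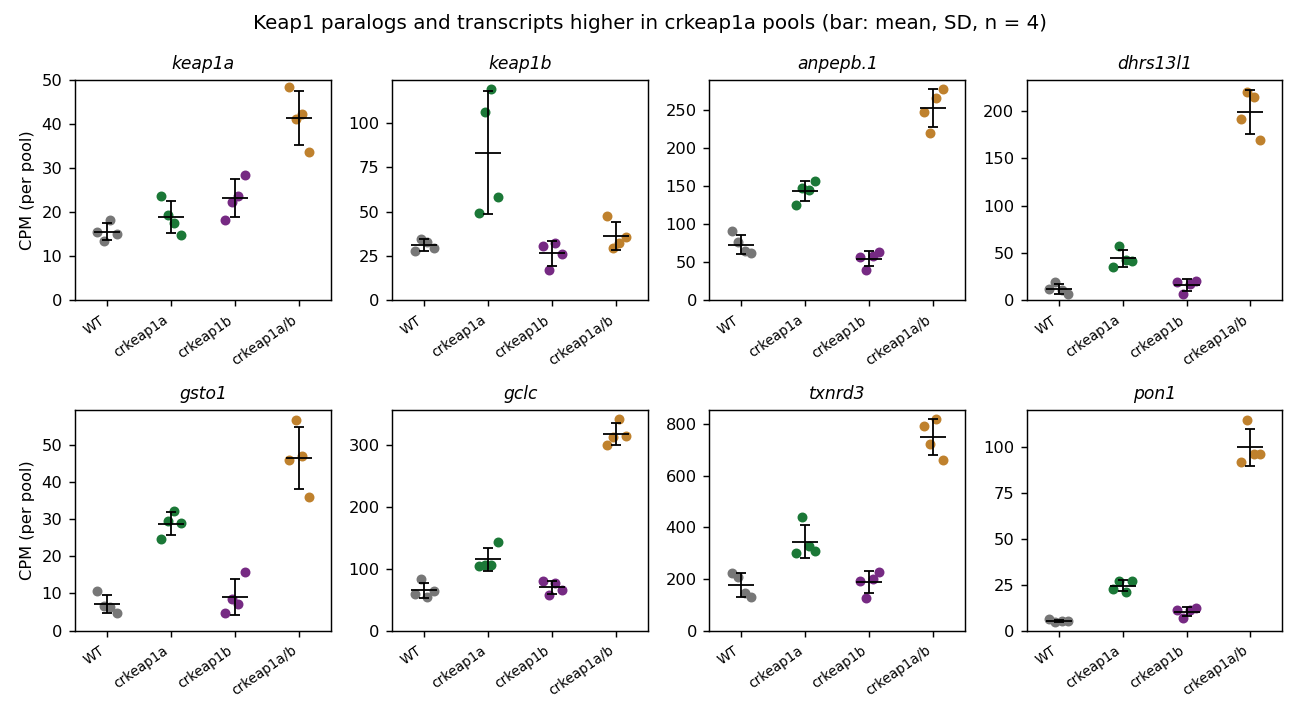
Level in CPM (linear axes from 0) of keap1a, keap1b and 6 transcripts higher in crkeap1a pools, 1 point per pool, in WT, crkeap1a, crkeap1b and crkeap1a/b larvae, with the mean and SD of each group (n = 4) in black. For anpepb.1, dhrs13l1, gsto1, gclc, txnrd3 and pon1 the crkeap1a pools lie between the crkeap1b pools and the crkeap1a/b pools, whereas keap1b is highest in crkeap1a pools, at 49.4 to 119 CPM.

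The transcript that passed, anpepb.1, was at 125, 147, 145 and 157 CPM in crkeap1a pools and at 56.4, 40.4, 58.2 and 64 CPM in crkeap1b pools. No crkeap1a pool came near the crkeap1b range, and every crkeap1a pool was also above every WT pool (61.9 to 90.5 CPM). The fold was 2.71, a log2 fold change of 1.44 ± 0.19 (SE; limma-voom, adjusted p = 0.0469). The call lies close to the threshold: leaving out any 1 of the 8 pools ended it, with limma-voom adjusted p between 0.0541 and 0.432 and log2 fold changes between 1.31 and 1.51. In crkeap1a/b pools the level was 252 ± 25.3 CPM (SD, n = 4). The gene belongs to a family of close copies, and how reads shared between copies were counted is not stated, so its count is uncertain to that degree.

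By the rule used to name genes, 14 further transcripts higher in crkeap1a, keap1b among them, were taken by smallest p among those whose pools did not overlap. None of these 14 passed in the 8-pool fit. Several belong to redox and detoxification chemistry. Gsto1, an omega-class glutathione S-transferase, was at 24.7, 29.5, 32.1 and 29 CPM in crkeap1a pools and at 4.78, 8.64, 7.08 and 15.8 CPM in crkeap1b pools. The crkeap1b pools overlapped WT (7.14 ± 2.52 CPM, SD, n = 4) and the crkeap1a pools did not. Its log2 fold change was 1.83 ± 0.31 (SE; limma-voom, adjusted p = 0.281, and 0.00182 in the 32-pool fit). Gclc, the catalytic subunit of the enzyme that begins glutathione synthesis, was at 104, 107, 106 and 144 CPM in crkeap1a pools and at 79.8, 57.7, 76.4 and 66.4 CPM in crkeap1b pools. Again only the crkeap1a pools were all above WT (65.2 ± 12.7 CPM, SD, n = 4), and the log2 fold change was 0.74 ± 0.19 (SE; limma-voom, adjusted p = 1, and 0.00739 in the 32-pool fit). Txnrd3, a thioredoxin reductase, was at 302, 439, 329 and 307 CPM in crkeap1a pools and at 194, 126, 201 and 228 CPM in crkeap1b pools. The groups did not overlap, at a log2 fold change of 0.92 ± 0.22 (SE; limma-voom, adjusted p = 1, and 0.00581 in the 32-pool fit).

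The remaining transcripts of this set had other roles. Dhrs13l1, a short-chain dehydrogenase/reductase, was at 35.7, 57.3, 42.3 and 41.9 CPM in crkeap1a pools and at 19.6, 7.07, 17.2 and 20.1 CPM in crkeap1b pools. Pon1, a paraoxonase, which is an esterase carried in mammals on lipoproteins, was at 20.9 to 27.1 CPM in crkeap1a pools and at 6.68 to 12.2 CPM in crkeap1b pools. Dhrs13l1 and pon1 were therefore both separate between the groups, with log2 fold changes of 1.62 ± 0.31 and 1.32 ± 0.26 (SE), and pon1 was the only 1 of these 15 transcripts for which all crkeap1b pools were above all WT pools as well. Sftpba, related to mammalian surfactant protein B, behaved in another way: it was at 45.8, 33.7, 22.8 and 32.8 CPM in crkeap1a pools and at 11.9, 12.2, 9.61 and 8.53 CPM in crkeap1b pools. The crkeap1a pools overlapped WT (31.6 ± 15 CPM, SD, n = 4) and all crkeap1b pools lay below it. Lrp2b, a megalin-type endocytic receptor, had a log2 fold change of 1.69 ± 0.43 (SE) with 10.5 to 15.8 CPM in crkeap1a pools against 1.57 to 8.6 CPM in crkeap1b pools. The cytochrome P450 cyp2k18, the mitochondrial topoisomerase top1mt and the glutamyl-prolyl-tRNA synthetase eprs1 were separate at smaller log2 fold changes of 0.82 ± 0.21, 0.95 ± 0.25 and 0.72 ± 0.19 (SE). LOC100005008, GeneID_100006428 and si:ch211-196h16.5, for which no role is given here, completed the set at log2 fold changes of 2.14 ± 0.48, 1.99 ± 0.42 and 1.00 ± 0.26 (SE). LOC100005008 was at 5.49, 8, 6.04 and 8 CPM in crkeap1a pools and at 0.956, 1.57, 3.54 and 0.609 CPM in crkeap1b pools. Its crkeap1b replicates 1 and 4 lay below the level of 3 counts, so the size of its fold is uncertain.

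Levels in pools that the comparison does not use were then set beside the 15 transcripts higher in crkeap1a, with no test. All crkeap1a pools lay above all WT pools for 12 of the 15, against 7.4% of all rows tested, a count on which the choice of transcripts high in these pools bears directly. All crkeap1a/b pools lay above all WT pools for 9 of the 15, against 6.43% of all rows tested. The 9 were anpepb.1, dhrs13l1, gclc, gsto1, lrp2b, pon1, top1mt, txnrd3 and GeneID_100006428. Among all 143 rows whose crkeap1a pools were separate and above, crkeap1a/b pools lay above WT for 21 and overlapped WT for 112. The share of 9 in 15 therefore holds only for the transcripts of smallest p. In the Nrf2 KO line, the Nrf2 KO crkeap1a/b pools lay above the Nrf2 KO pools for 7 of the 15, against 6.52% of all rows tested. On CPM scaled over all 32 pools, dhrs13l1 went from 6.88 ± 2.69 in Nrf2 KO to 56.2 ± 11.3 in Nrf2 KO crkeap1a/b pools and txnrd3 from 115 ± 21.8 to 247 ± 25.2 (SD, n = 4 each). Gclc went only from 44 ± 5.84 to 64 ± 2.91 (SD, n = 4 each). The rises in the WT background were larger, on CPM scaled over 16 pools. From WT to crkeap1a/b pools dhrs13l1 went from 12.4 ± 5.36 to 199 ± 23.1 (SD, n = 4 each). Txnrd3 went from 177 ± 46.4 to 749 ± 70.8 and gclc from 65.2 ± 12.7 to 318 ± 17.8 (SD, n = 4 each). The paper reports, from a heatmap of target genes, that Keap1 loss did not induce the Nrf2 program in the Nrf2 KO line. The few transcripts given here do not test that statement. In the Nrf2 KO line keap1b moved the other way with crkeap1a/b editing, from 30.9 ± 2.38 to 15.9 ± 2.22 CPM (SD, n = 4 each), with no overlap.

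Nrf2 targets were examined as a list of 93 names, with rows for 68 and enough counts to test 53. None passed in the 8-pool fit. At an unadjusted limma-voom p under 0.05, 8 were higher in crkeap1a (against 1.76% of all rows) and 2 higher in crkeap1b (against 1.4%). The whole list leaned little, with 29 members higher in crkeap1a and 24 in crkeap1b and a median log2 fold change of 0.10. Leaving out crkeap1b replicate 2, the pool with the lowest summed level of these targets, turned this lean around, to 25 members higher in crkeap1a and a median of -0.04. The summed level was 5276, 7178, 6976 and 5358 CPM in crkeap1a pools and 6004, 4103, 6724 and 8201 CPM in crkeap1b pools, fully overlapping. WT pools held 3611 to 4509 CPM and crkeap1a/b pools 10467 to 12089 CPM. In summed targets, 7 of the 8 single crispant pools therefore lay above the WT range and all 8 below the crkeap1a/b range. A sum above WT was not particular to this list. Summed phototransduction genes were at 6039 to 8265 CPM in crkeap1a and 6537 to 10223 CPM in crkeap1b pools, against 3402 to 5305 CPM in WT. Muscle contractile genes also lay above the WT range in all 8 pools. The leukocyte and acute-phase list overlapped WT in both groups, and each other tissue list had only some pools above it. The sum of the Nrf2 targets is weighted to abundant members. Mean levels in crkeap1a and crkeap1b were 1485 and 1426 CPM for fthl27, 942 and 1106 CPM for fth1a, and 564 and 741 CPM for gpx4a. For gpx4a, crkeap1a/b pools lay below WT.

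The list was less even when divided by pools outside the comparison. For 28 of the 53 targets all crkeap1a/b pools lay above all WT pools. All 8 targets with an unadjusted p under 0.05 and higher in crkeap1a were among these 28, of which 21 were higher in crkeap1a, with a median log2 fold change of 0.27. The count of 8 stayed at 8 or 9 whichever pool was left out, while the count of 21 ranged from 16, without crkeap1b replicate 2, to 24, without crkeap1b replicate 1. The median ranged from 0.11 without crkeap1b replicate 2 to 0.39 without crkeap1b replicate 4. Of all 735 rows with crkeap1a/b above WT, 39 (5.31%) had an unadjusted p under 0.05 and were higher in crkeap1a, 13 (1.77%) were higher in crkeap1b, and 53.2% had the higher mean in crkeap1a. All crkeap1a pools lay above all WT pools for 20 of the 28 targets, and all crkeap1b pools did for 5. Among the 735 rows, chosen by the same crkeap1a/b condition, 139 and 80 did so. Among all rows tested the shares were 7.4% and 6.92%. Counted by pool, 20, 26, 25 and 22 of the 28 were above the highest WT pool in crkeap1a replicates 1 to 4, and 20, 7, 19 and 23 in crkeap1b replicates 1 to 4. Of the 735 rows, 38.9%, 45%, 38.5% and 46.9% were above it in crkeap1a replicates 1 to 4. In crkeap1b replicates 1 to 4 the shares were 37.1%, 31.3%, 40.8% and 50.2%. The low count of 7 (25% of the 28, against 31.3% of the 735 rows) belonged to crkeap1b replicate 2, which also had the lowest value on the first component. The part of that pool in the lower crkeap1b counts was not tested beyond leaving it out.

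**Figure D3:**
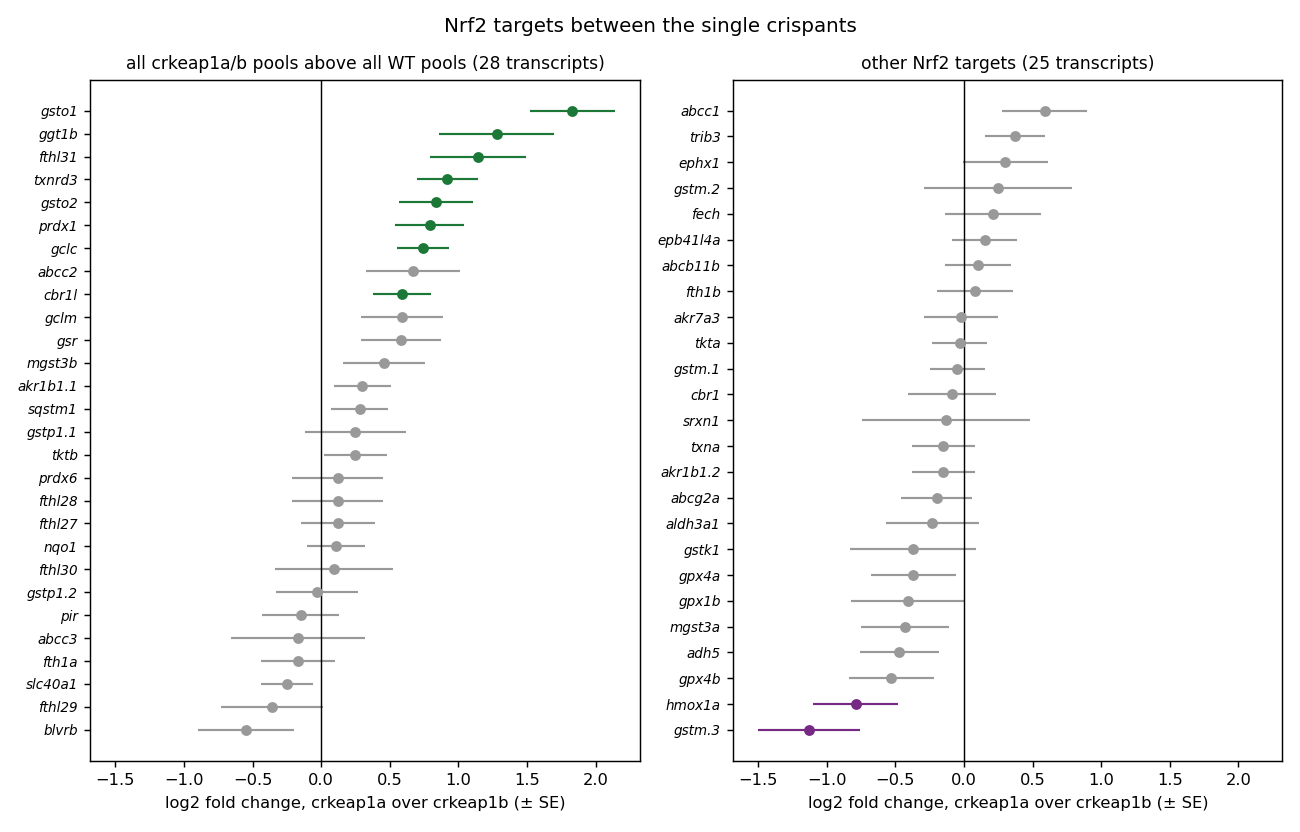
Log2 fold change of crkeap1a over crkeap1b with its SE for 53 Nrf2 targets (limma-voom, 8 pools), divided into those for which all crkeap1a/b pools lay above all WT pools (left) and the others (right). Green marks an unadjusted p under 0.05 with the higher level in crkeap1a and purple the same with the higher level in crkeap1b; the 8 green points all lie on the left, from 0.59 for cbr1l to 1.83 for gsto1.

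By function, the glutathione synthesis and recycling genes lay furthest to the crkeap1a side. All 4 tested were higher in crkeap1a, with a median log2 fold change of 0.66. Besides gclc these were gclm, the modifier subunit of the same enzyme, at 0.59 ± 0.30 (SE), the glutathione reductase gsr at 0.58 ± 0.29 (SE), and the gamma-glutamyltransferase ggt1b at 1.28 ± 0.42 (SE). Ggt1b was at 4.95 to 10.1 CPM in crkeap1a pools and at 1.96 to 4.87 CPM in crkeap1b pools, separate by a narrow margin. Of the 8 thioredoxin system genes tested, 3 were higher in crkeap1a and 5 in crkeap1b, with a median of -0.14. On the crkeap1a side of that group, prdx1, a peroxiredoxin, was at 85.1 to 147 CPM in crkeap1a pools and at 45.6 to 82.2 CPM in crkeap1b pools. The groups of prdx1 did not overlap (log2 fold change 0.79 ± 0.25, SE), and crkeap1a/b pools reached 783 ± 90.4 CPM (SD, n = 4), so that both single crispants stayed far below the compound level. Gsto2, the other omega-class transferase, was at 43.3 ± 11.3 CPM in crkeap1a, 25.6 ± 8.57 in crkeap1b, 9.9 ± 1.19 in WT and 329 ± 41 in crkeap1a/b pools (SD, n = 4 each). Every single crispant pool of gsto2 was above every WT pool, and the crkeap1a and crkeap1b pools overlapped. The ferritin-like fthl31, of an iron storage family with close copies, had a log2 fold change of 1.14 ± 0.35 (SE), and the carbonyl reductase cbr1l one of 0.59 ± 0.21 (SE). The groups these genes came from were near even. Higher in crkeap1a were 5 of 10 glutathione S-transferases (median 0.11), 6 of 11 iron and heme genes (0.08) and 4 of 9 quinone and carbonyl reductases (-0.02).

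Other strongly induced targets did not tell the crispants apart. Gstp1.2, a pi-class glutathione S-transferase, was at 252 ± 81.6 CPM in crkeap1a and 262 ± 91 CPM in crkeap1b pools against 89.4 ± 10.9 in WT and 1411 ± 474 in crkeap1a/b pools (SD, n = 4 each). All pools of both single crispants were above all WT pools, with a log2 fold change between them of -0.03 ± 0.30 (SE). Gstp1.1 (0.25 ± 0.37, SE), the ferritin-like fthl28 (0.12 ± 0.33, SE) and the quinone reductase nqo1 (0.11 ± 0.21, SE) likewise overlapped, and nqo1 also overlapped WT in both groups. On the crkeap1b side stood hmox1a, the heme oxygenase that opens the heme ring, at 10.6 to 25 CPM against 7.16 to 8.7 CPM in crkeap1a pools (log2 fold change -0.79 ± 0.31, SE). With it stood the mu-class transferase gstm.3 at 9.03 to 14.3 CPM against 2.67 to 8 CPM (-1.13 ± 0.37, SE). For both of these, crkeap1b pools were all above WT, whereas crkeap1a/b pools overlapped WT.

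Among the 15 transcripts higher in crkeap1b whose pools did not overlap, none passed in the 8-pool fit. Ppp1r14ba, an inhibitor of protein phosphatase 1, was at 15.3, 17.3, 14.2 and 16.4 CPM in crkeap1b pools and at 5.49, 3.37, 6.51 and 8 CPM in crkeap1a pools. The crkeap1b pools were tightly grouped and all above WT (5.31 ± 1.04 CPM, SD, n = 4), which the crkeap1a pools overlapped. Its log2 fold change was -1.43 ± 0.31 (SE; limma-voom, adjusted p = 0.71, and 0.0273 in the 32-pool fit). The ribosomal protein gene rpl22l1 passed only in the 32-pool fit and in the fit with a surrogate variable (limma-voom, adjusted p = 0.00887 and 0.00823). It was at 511, 412, 629 and 818 CPM in crkeap1b pools and at 326, 319, 420 and 246 CPM in crkeap1a pools, which overlapped by a few CPM (log2 fold change -0.81 ± 0.25, SE).

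A pair of transcripts in this set had far higher levels in crkeap1a/b pools. The transcript zgc:153317 was at 12.9, 5.1, 7.59 and 9.75 CPM in crkeap1b pools, at 1.37, 2.53, 0.93 and 3.81 CPM in crkeap1a pools and at 142 ± 24 CPM in crkeap1a/b pools (SD, n = 4). In WT it had 1.04, 0, 0 and 0.683 CPM, at or below the level of 3 counts, so no fold over WT is given. Its log2 fold change between the crispants was -1.92 ± 0.51 (SE; limma-voom, adjusted p = 1). Crkeap1a replicates 1 and 3 were also at or below the level of 3 counts, so the size of this fold is uncertain. Si:ch211-214p16.2 was at 11.9, 10.2, 14.2 and 16.4 CPM in crkeap1b pools and at 4.12, 5.48, 7.9 and 6.48 CPM in crkeap1a pools, the latter overlapping WT, while crkeap1a/b pools held 68.2 ± 13.3 CPM (SD, n = 4). For these transcripts the crkeap1b pools were the single crispant pools nearer to crkeap1a/b. Crkeap1a/b pools lay above WT for 3 of the 15 and below WT for 2 of the 15, against 6.43% and 6.76% of all rows tested. Among all 149 rows whose crkeap1b pools were separate and above, they lay above WT for 13 and below WT for 9. Nrf2 KO crkeap1a/b pools lay above Nrf2 KO pools for 2 of the 15, against 6.52% of all rows tested. Crkeap1b pools lay above WT for 8 of the 15, against 6.92% of all rows tested, and crkeap1a pools below WT for 2, against 7.19%, counts on which the choice of transcripts by these same pools bears directly.

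**Figure D4:**
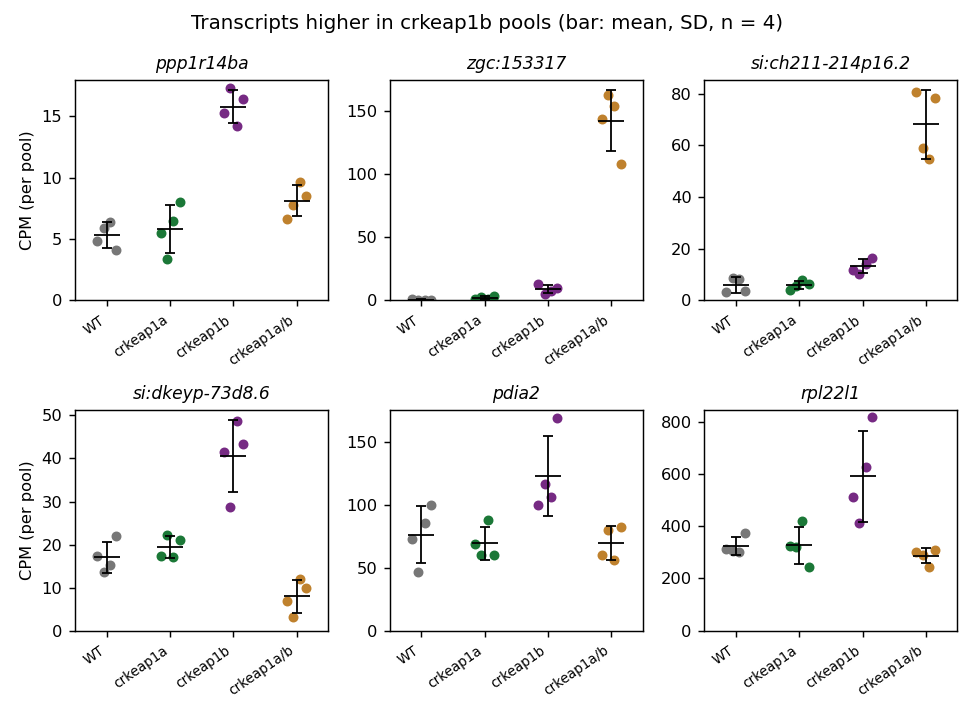
Level in CPM (linear axes from 0) of 6 transcripts higher in crkeap1b pools, 1 point per pool, in WT, crkeap1a, crkeap1b and crkeap1a/b larvae, with the mean and SD of each group (n = 4) in black. The transcripts zgc:153317 and si:ch211-214p16.2 are highest in crkeap1a/b pools (means 142 and 68.2 CPM), whereas the mean of si:dkeyp-73d8.6 and of pdia2 is highest in crkeap1b pools.

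The rest of that set included genes of single tissues. Pdia2, a disulfide isomerase of the exocrine pancreas, was at 100, 116, 106 and 169 CPM in crkeap1b pools and at 68.7, 59.8, 87.9 and 60.2 CPM in crkeap1a pools (log2 fold change -0.79 ± 0.21, SE). Ahsg2, a fetuin secreted by the liver, was at -0.75 ± 0.23 (SE) and its level in crkeap1a/b pools was 2.09 ± 1.51 CPM against 22.1 ± 4.83 in WT (SD, n = 4 each). The photoreceptor calcium sensor guca1ab.2 (-1.38 ± 0.42, SE), the keratin krt18b (-0.93 ± 0.30), the sodium pump subunit atp1a1a.2 (-0.63 ± 0.19) and the secretory pathway protein tmed6 (-1.08 ± 0.33) were also separate. So were the calcium-binding s100a11 (-1.28 ± 0.38, SE), the matrix protein cthrc1b (-1.08 ± 0.34), the prion-related sprn (-0.61 ± 0.19), and si:dkeyp-73d8.6 (-0.99 ± 0.22) and GeneID_110439305 (-1.26 ± 0.31), for which no role is given here. The remaining transcript, an uncharacterised cDNA clone, was separate at -0.77 ± 0.23 (SE).

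Whole lists of tissue genes leaned to crkeap1b without separating the pools. All 17 exocrine pancreas markers tested were higher in crkeap1b, with a median log2 fold change of -0.61, and 1 (pdia2) had an unadjusted p under 0.05. That count depended on single pools: it was 11 without crkeap1a replicate 3, 8 without crkeap1b replicate 2, 10 in the 32-pool fit and 13, of which 2 passed, with 1 surrogate variable. Over all rows tested, 361 of 11426 had such a p in either direction in the 8-pool fit. In the other fits, in the order named, 385 of 11953, 787 of 11733, 1172 of 14108 and 978 of 11426 did. The pancreas median ran from -0.91 without crkeap1a replicate 3 to -0.30 without crkeap1b replicate 4. The summed pancreas level was 16765, 27857, 49480 and 15040 CPM in crkeap1a pools and 32678, 21409, 42070 and 68393 CPM in crkeap1b pools. It overlapped widely, and crkeap1a replicate 3 exceeded 3 of the 4 crkeap1b pools. Muscle contractile genes were higher in crkeap1b for 36 of 44 (median -0.27) and their summed level ran from 88205 to 145315 CPM in crkeap1a pools and from 93637 to 211085 CPM in crkeap1b pools, against 56651 to 66799 CPM in WT. Lens crystallins (26 of 28, median -0.29), epidermal keratins and junction genes (26 of 33, median -0.20), globin and heme synthesis genes (11 of 16, median -0.53) and phototransduction genes (26 of 40, median -0.15) leaned the same way. With 1 pool left out the medians kept their sign but moved, for lens from -0.49 without crkeap1a replicate 3 to -0.10 without crkeap1b replicate 4, for muscle from -0.33 to -0.20, for keratins and junctions from -0.35 to -0.11, for globin and heme from -0.74 to -0.25 and for phototransduction from -0.20 to -0.08. Without crkeap1b replicate 2, the members higher in crkeap1b at an unadjusted p under 0.05 went from 3 to 14 in muscle, from 0 to 7 in lens and from 4 to 11 in phototransduction. Rows at such a p rose in general there, from 361 of 11426 to 787 of 11733 in either direction. For all of these lists crkeap1b replicate 2 and crkeap1a replicates 1 and 4 were among the low pools. In a bulk sample fewer cells of a type and less RNA per cell cannot be told apart, and the part of unequal tissue content in any single difference was not tested.

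Some members of these lists reached an unadjusted p under 0.05. The green cone opsin opn1mw1 was at 329 ± 93.9 CPM in crkeap1b and 191 ± 51 CPM in crkeap1a pools (SD, n = 4 each; log2 fold change -0.76 ± 0.26, SE), and the cone kinase grk7a and cone transducin gnat2 were separate at -0.62 ± 0.22 and -0.42 ± 0.17 (SE). The keratin krt1-19e (-1.02 ± 0.32, SE), the muscle genes acta1b (-0.72 ± 0.31), casq1b (-0.65 ± 0.26) and tnnt3a (-0.49 ± 0.21) and the embryonic globin hbbe2 (-0.83 ± 0.35) had the higher mean in crkeap1b. The opsin, keratin, actin and globin genes belong to families of near-identical copies, between which reads may have been divided. Intestinal genes were divided: of 35 tested, 14 were higher in crkeap1a and 21 in crkeap1b (median -0.20, and 0.01 without crkeap1b replicate 4). Anpepb.1 and lrp2b were at 1 end, and at the other was chia.3, a chitinase, at 6.57 ± 3.28 CPM in crkeap1a and 13.1 ± 3.22 CPM in crkeap1b pools (SD, n = 4 each; -1.09 ± 0.39, SE). Liver-secreted proteins were higher in crkeap1b for 26 of 37, with a median of -0.08 that turned to 0.03 without crkeap1b replicate 4. In the leukocyte and acute-phase list (15 tested, median 0.03) the neutrophil peroxidase mpx was at 14.6, 13.1, 14.4 and 19.4 CPM in crkeap1a pools and at 5.26, 4.71, 13.2 and 3.05 CPM in crkeap1b pools. Only crkeap1b replicate 3 reached into the crkeap1a range, and the log2 fold change of mpx was 1.40 ± 0.37 (SE; limma-voom, adjusted p = 1) with WT at 25.4 ± 14.1 CPM (SD, n = 4).

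None of the lysosomal genes passed between the single crispants. Of 47 tested, 31 were higher in crkeap1a, with a median log2 fold change of 0.12. The 4 with an unadjusted p under 0.05 and higher in crkeap1a, where 1.76% of all rows were, were all among the 25 hydrolases tested: the legumain gene lgmn (0.48 ± 0.18, SE), man2b1 (0.63 ± 0.24), naga (0.69 ± 0.30) and scpep1 (0.74 ± 0.24). Leaving out 1 pool moved that count from 2, without crkeap1a replicate 3 or crkeap1b replicate 1 or 2, to 7, without crkeap1a replicate 1. Only lgmn was separate, at 243, 262, 321 and 247 CPM in crkeap1a pools and at 180, 206, 204 and 190 CPM in crkeap1b pools. Its WT level, 339 ± 138 CPM (SD, n = 4), overlapped both groups. The beta-glucuronidase gusb (-0.73 ± 0.32, SE) was higher in crkeap1b, the only member at such a p on that side, where 1.4% of all rows were. The log2 fold changes of the 25 hydrolases ran from -1.49 to 0.74, so the largest difference lay on the crkeap1b side, without such a p. The 16 vacuolar ATPase subunits had a median of -0.07 and none had an unadjusted p under 0.05.

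In the remaining lists, too, medians and counts moved with single pools. Cytosolic ribosomal protein genes were higher in crkeap1b for 68 of 72 (median -0.28) and nuclear-encoded respiratory chain subunits for 64 of 70 (median -0.23), with 1 member each, rpl22l1 and atp5mea, at an unadjusted p under 0.05. Without crkeap1b replicate 2 the members at such a p, all higher in crkeap1b, were 15 of 72 and 31 of 71. The medians there were -0.53 and -0.49. In that fit 787 of all 11733 rows had such a p in either direction, against 361 of 11426 with all pools kept. Without crkeap1b replicate 4 the medians were -0.08 and -0.04, and 27 of 71 respiratory chain subunits were higher in crkeap1a. Circadian clock genes were higher in crkeap1a for 30 of 35 (median 0.17) and proteasome subunits for 33 of 46 (median 0.10), with none at that level in either list. The proteasome lean turned over without crkeap1b replicate 2 (21 of 47, median -0.02), and that of the clock genes was 21 of 36, at a median of 0.07, without crkeap1b replicate 4. Heat shock genes had a median of 0.08, with the co-chaperone bag3 separate at 0.78 ± 0.30 (SE) and the mitochondrial chaperone hspa9 overlapping at 0.59 ± 0.24 (SE), both at an unadjusted p under 0.05. Endoplasmic reticulum chaperones had a median of -0.02, with hyou1 separate at 0.74 ± 0.24 (SE). Among glucose, insulin and glucocorticoid genes (26 tested, median 0.07) fkbp5, a co-chaperone induced by glucocorticoids, was at 86.1, 55.2, 41.8 and 64.8 CPM in crkeap1a pools and at 32, 40.8, 31.9 and 34.7 CPM in crkeap1b pools. The crkeap1a pools of fkbp5 overlapped WT and the crkeap1b pools lay below it, at a log2 fold change of 0.81 ± 0.24 (SE; limma-voom, adjusted p = 1). On the crkeap1b side of that list was the glucagon gene gcgb at -1.04 ± 0.46 (SE), with overlapping pools. Among ATF4 and amino acid stress genes (27 tested, median -0.03) atf3 was at 0.81 ± 0.29 (SE) with overlapping pools. In the tissue lists above and in these, no member but anpepb.1 passed. The p53 response (20 tested, median -0.04), DNA replication and mitosis (27, median -0.07), cholesterol synthesis (13, median -0.01), fatty acid (38, median 0.01), collagen (35, median -0.02) and cytochrome P450 lists (30, median 0.07) held at most 1 member a direction at an unadjusted p under 0.05.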

How the data were processed

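RNA was measured by 3′ sequencing in pools of 10 larvae. The authors trimmed reads with cutadapt 1.16, aligned them with STAR 2.7.5b to GRCz11 (danRer11), and deposited raw counts per gene made with featureCounts 1.6.3; strand and shared-read settings are not given in the sources used here. The table has 16825 rows, of which 786 without a gene ID (30.6% to 42.8% of the counts of the 8 pools) were left out. Symbols came from a RefSeq gene table of GRCz12tu, used for names and gene order only, which matched 15617 of 16039 IDs. Groups and columns were taken from the sample labels, with 0 columns unmatched. Rows kept by filterByExpr (minimum count 10) were fitted with limma-voom 3.58.1 in R 4.3.3 on the 8 pools, with TMM scaling (edgeR 4.0.16) and two-sided eBayes tests. The Benjamini-Hochberg adjustment ran over 11426 rows. Pools were called separate where the lowest CPM of 1 group exceeded the highest of the other. Intervals are 95% and cover the spread between pools.

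Replicates of a group differed by a chi-square per degree of freedom of 3.32 or more, so no pool was counted as a duplicate. Alternatives were DESeq2 1.42.0 size factors and Wald test, edgeR's quasi-likelihood test, no filter, fits to 16 or 32 pools, quality weights, a replicate block, 1 surrogate variable (sva 3.50.0), each pool left out, and the row with most counts (actc1b) left out. Keeping rows without an ID, setting the Nrf2 KO pools beside the named genes, and dividing the Nrf2 targets by crkeap1a/b against WT pools were added after seeing the data. The fits were tested on simulated data. The comparison, the 27 gene lists and the alternatives were chosen with earlier results of these data known. Named were the pathway components, the 15 separate rows per direction (called rows by fold change, then smallest p; mean of at least 1 CPM), and in each list the members of smallest p, up to 6 where any was called and 3 otherwise. Members printed beyond that rule (naga, gusb, usp2b, chia.3, smarca4b, and Nrf2 targets other than gclc, gsto1 and txnrd3) were chosen after their values were seen.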

Additional observations from a re-analysis of the deposited data

Results flagged for a closer look

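In groups of 4 pools, 7 of 224 checked levels had 1 pool far from the other 3 by Dixon's ratio, 3.12% where chance gives about 1 in 20. In crkeap1a, replicate 1 was low for col9a2 (136 CPM, the others 197 to 209) and stmn1a (24.3 CPM, the others 32.4 to 33.9), replicate 2 was high for eprs1 (209 CPM, the others 165 to 173) and low for grk7a (16 CPM, the others 22.9 to 24), replicate 3 was high for krt1-19e (685 CPM, the others 301 to 334), and replicate 4 was high for gclc (144 CPM, the others 104 to 107). In crkeap1b, replicate 4 was high for the globin hbbe1.2 (210 CPM, the others 70.7 to 94.1). Of these transcripts gclc, eprs1 and grk7a were separate between the groups, and the far pool of each lies on the side away from crkeap1b.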

How the results depend on the processing

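The call count of 1 became 0 with DESeq2 size factors (366 rows at an unadjusted p under 0.05), with no filter (524), with the replicate block (216) and with rows without an ID kept (380), and was 0 for each of the 8 pools left out (lowest and highest 0 and 0; 268 to 787 rows). It was 1 with edgeR's quasi-likelihood test (368) and without the row with most counts. It rose to 2 with quality weights, 6 with DESeq2's Wald test, 7 and 13 in the fits to 16 and 32 pools, and 23 with 1 surrogate variable, which called 14 higher in crkeap1a and 9 higher in crkeap1b. The 6 of DESeq2 and the 7 of the 16-pool fit were all among the 13. The replicate numbers showed no clear pairing of the pools, and 1 replicate correlated best with its own number. Correlations of deviations were 0.00, -0.49, 0.31 and -0.30 for the same number and -0.52 to 0.57 for different numbers. Whether pools of the same number shared a clutch or batch is not given in the labels. The log2 fold change of keap1b passed in the Wald test (1.67), the 32-pool (1.61), 16-pool (1.6) and surrogate variable fits (1.71), and that of keap1a kept its sign throughout, from -0.38 to -0.15. Of 110 other named genes, 105 kept their sign under all 19 alternatives. With 1 pool left out bach2b ran from -0.10 to 0.35, cul3b from -0.20 to 0.04, nfe2l2b from -0.28 to 0.05, pgam5 from -0.24 to 0.09 and rbx1 from -0.21 to 0.24, rbx1 also being -0.06 with quality weights. The cause was not tested. The median of all rows stayed between -0.02 and 0.03.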
